A study of Mus musculus with 9 samples.

Results

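Heat shock and organelle chaperone genes were examined in mouse heart RNA by gene symbol, from a list of 37 genes divided into cytosol, mitochondria and endoplasmic reticulum (ER). Of these, 36 were among the 13795 genes of the table, 17 cytosolic, 6 mitochondrial and 13 of the ER, and Hspa1b had no row in it. The samples were heart tissue of C57BL/6 mice, 4 of the vehicle group and 5 of the group treated for 8 weeks with 10 mg/kg of oxaliplatin, a platinum-based cancer drug. The study was concerned with the heart toxicity of the drug and energy metabolism. The labels give no age, sex, route or number of doses and do not say whether samples share animals or preparations, so p-values reflect only how these samples vary, and that variation may be technical.

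Chaperones bind proteins that are not yet folded or have unfolded, and each compartment has its own set. In the cytosol, HSP70 proteins bind exposed stretches with the help of J-proteins and nucleotide exchange factors, HSP90 proteins mature kinases and steroid receptors, and small heat shock proteins hold partly unfolded proteins, with Cryab and its relatives abundant in heart muscle. The transcription factor Hsf1 raises many of these genes on heat or proteotoxic stress by binding repeats of the letters GAA in alternating orientation. In the mitochondrial matrix, Hspd1 and its lid Hspe1 form the chaperonin chamber, and in the ER, chaperones and disulfide isomerases are raised by the unfolded protein response, which acts in part through ER stress elements in promoters.

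Reads in the 13795 genes of the table were estimated at 28.5 M to 36.2 M a sample. Reads outside these genes are not included, so this is not the sequencing depth. All 12 cardiomyocyte markers lay in the top 3.46% of genes by mean level in these heart samples. Vehicle 1, oxaliplatin 2 and oxaliplatin 4 had a score of 10 atrial markers more than 1 (log2) above the mean of all samples, and calls that change when these 3 are left out are given. None of the 10 atrial markers passed (median log2 fold change 0.58), and none of 9 erythroid markers passed, although all 9 had negative log2 fold changes and 7 an unadjusted p under 0.05 (median -2.66, sums of 222518 to 572561 normalized counts in vehicle and 8343 to 359990.2 in oxaliplatin samples). In oxaliplatin samples all 12 cardiomyocyte markers had negative log2 fold changes, while all 8 fibroblast and all 8 endothelial markers had positive ones. Of 8 proliferating cell markers 7 rose (median 3.15), of 5 B and plasma cell markers 3 fell (median -2.18), and of 8 smooth muscle and pericyte markers 1 rose (6 had an unadjusted p under 0.05, median 0.59). Of 8 macrophage markers 2 rose (median 0.22), and none of 4 skeletal muscle or 5 fat markers passed in limma or had an unadjusted p under 0.05 (medians 0.13 and 1.66). Of cell type scores, only the atrial and erythroid ones were tried as covariates, and the part of the other cell types in the chaperone values was not tested. In whole tissue, fewer cells of a type and less RNA per cell cannot be told apart.

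Over all compartments, 3 chaperone genes fell with oxaliplatin and 2 rose. Those that fell were the mitochondrial chaperonin genes Hspd1 and Hspe1 and the cytosolic HSP90 gene Hsp90ab1, and those that rose were the ER disulfide isomerase genes Pdia3 and Pdia4. The 5 of 36 that passed (adjusted p under 0.05, limma over all genes) made up 13.9%, against 14.3% of all 13788 genes tested, so chaperone genes passed about as often as genes at large. By direction, 5.56% rose against 9.23% of all genes, and 8.33% fell against 5.03%. Vehicle and oxaliplatin values were fully separate in 5 of the 36 genes (13.9%), against 14.9% of all genes, namely Hspd1, Hspe1, Hsp90ab1, Pdia3 and the heat shock factor gene Hsf1. The counts changed when single samples were left out, and so did those over all genes (1272 higher and 694 lower with all samples). Leaving out oxaliplatin 1 gave 2 higher and 9 lower chaperone genes, beside 1299 and 854 over all genes. Vehicle 3 gave 0 and 1, beside 789 and 321. Leaving out vehicle 1 or oxaliplatin 2 gave 1 and 5 chaperone genes, vehicle 2 or 4 gave 0 and 3, and oxaliplatin 3, 4 or 5 gave 0 and 2. Over all genes, such fits gave 789 to 1508 higher and 321 to 880 lower. The median log2 fold change was -0.45 over the 6 mitochondrial genes, -0.29 over the 17 cytosolic genes and 0.00 over the 13 ER genes, beside -0.02 over all genes tested. Log2 fold changes were negative for 6 of 6 mitochondrial, 15 of 17 cytosolic and 6 of 13 ER genes, beside 52.3% of all genes tested. Fold changes are on the scale of log2(normalized count + 1).

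**Figure D1:**
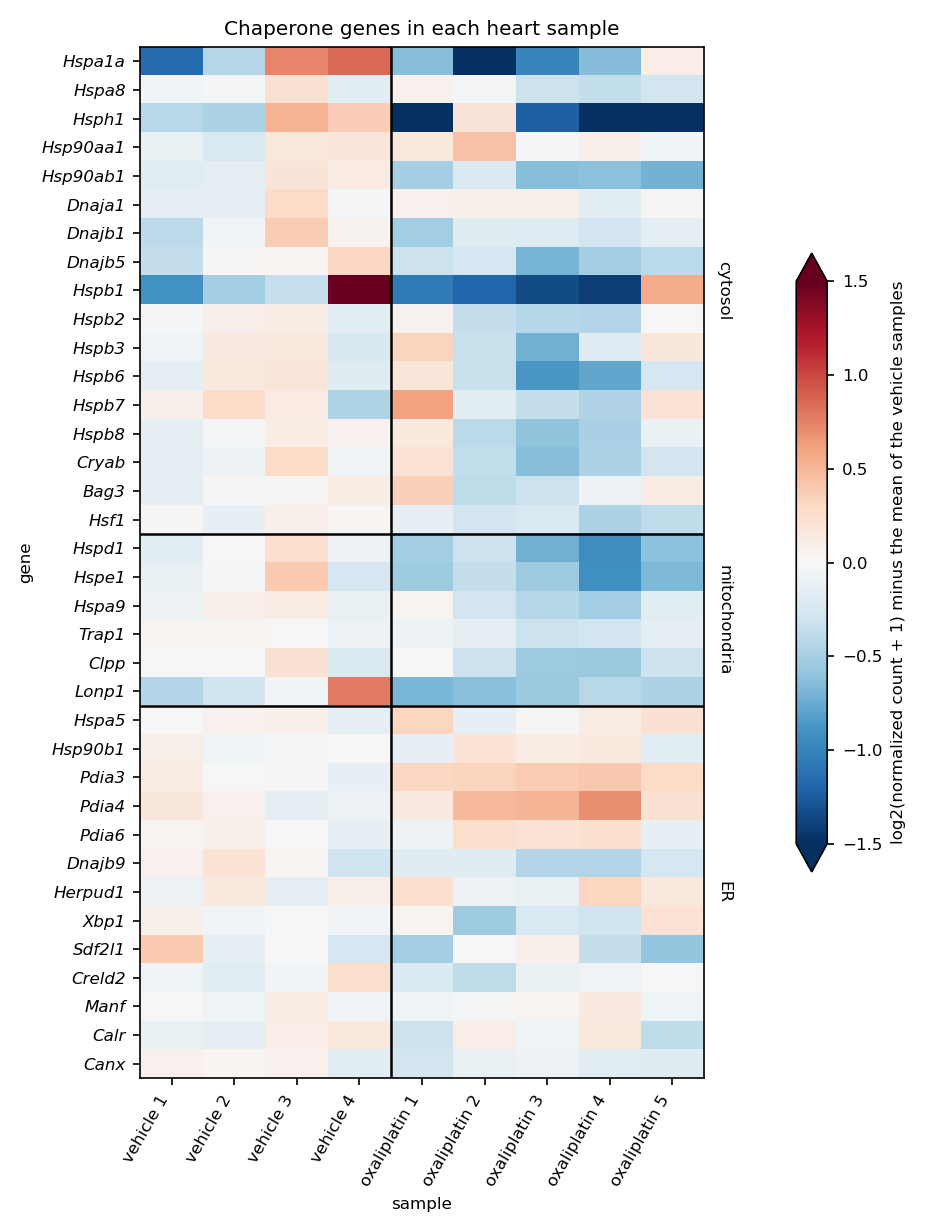
Each row is 1 of the 36 chaperone genes and each column 1 heart sample. Color gives log2(normalized count + 1) minus the mean of the 4 vehicle samples, cut at 1.5 either way on the color scale. The 6 mitochondrial rows are mostly blue in oxaliplatin samples, the ER rows are mixed, and Hspb1, Hsph1 and Hspa1a vary most within groups.

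**Figure D2:**
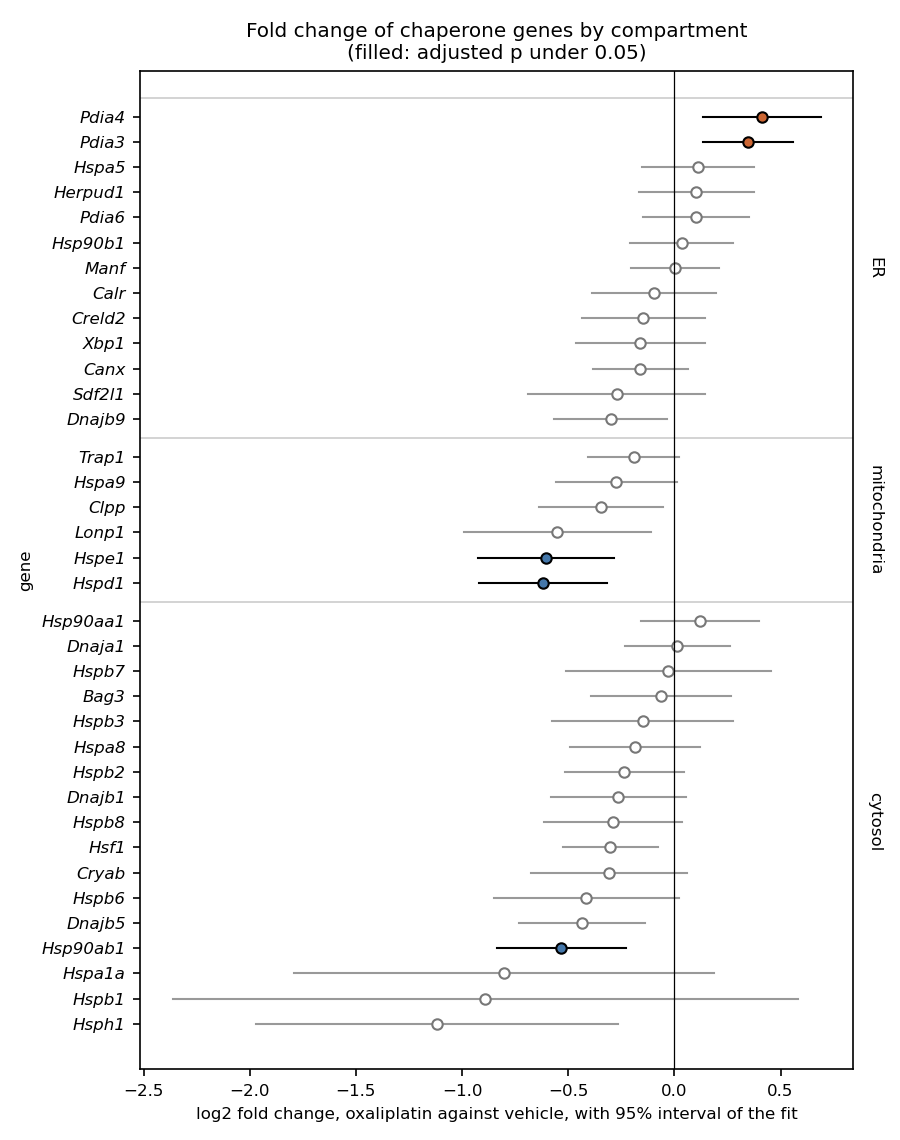
Points are log2 fold changes of oxaliplatin against vehicle for the 36 chaperone genes by compartment, with the 95% interval of the limma fit, and filled points passed an adjusted p under 0.05. Hspd1, Hspe1 and Hsp90ab1 lie below 0 and Pdia3 and Pdia4 above, and the other 31 points are open.

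In mitochondria, both chaperonin genes passed as lower, and Hspd1 fell by 34.8% and Hspe1 fell by 34.2% in the fit. Hspd1, which encodes HSP60, the chaperonin ring of the matrix, had 12239, 13664, 16103 and 12986 normalized counts in vehicle samples 1 to 4 and 9593, 10977, 8297, 7183 and 8946 in oxaliplatin samples 1 to 5. All 5 oxaliplatin samples lay below all 4 vehicle samples. Means were 13748 ± 1674 normalized counts in vehicle and 8999 ± 1419 in oxaliplatin samples (SD, n = 4 and 5), a drop that passed the test (log2 fold change -0.62 with SE 0.14 and adjusted p = 0.0111, limma). Hspe1, which encodes HSP10, the lid of that chamber, had 4523, 4805, 6423 and 4091 normalized counts in vehicle samples 1 to 4 and 3387, 3822, 3368, 2575 and 3069 in oxaliplatin samples 1 to 5. Here too the groups did not overlap, and vehicle 3 was the highest sample for both genes and oxaliplatin 4 the lowest. The mean of Hspe1 went from 4961 ± 1018 to 3244 ± 460.3 normalized counts, which passed as well (log2 fold change -0.60 with SE 0.15 and adjusted p = 0.0170, limma). The call of Hspe1 was lost without vehicle 3 (log2 fold change -0.47, adjusted p = 0.0608), with the erythroid marker score as a covariate (-0.69, 0.0625) and with the score of immediate early genes as a covariate (-0.55, 0.0645), while Hspd1 passed in all 23 alternative settings (highest adjusted p = 0.0478).

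Hspd1 and Hspe1 stand head to head on chromosome 1, Hspd1 at chr1:55077835-55088243 on the minus strand and Hspe1 at chr1:55088132-55091307 on the plus strand (GENCODE M21, GRCm38). Their exons overlap in this annotation, and whether reads were counted by strand is not stated in the labels or the file, and reads from the overlap cannot be assigned. The log2 ratio of Hspe1 to Hspd1 was -1.48 ± 0.14 in vehicle and -1.47 ± 0.10 in oxaliplatin samples (difference 0.01, exact two-sided permutation p = 0.913, adjusted p = 0.913 over 6 pairs picked with the values known). A p of this size does not show that the ratio stayed the same. A stretch before the start of Hspe1 is shown because 1 run of heat shock element letters serves as a match for both genes. The motif searched was GAA, TTC and GAA with any 2 bases between each, on both strands, in RefSeq windows (GRCm38.p6) from 250 bases before to 50 bases after each start, which matched 29 of the 37 listed genes. It occurred in Hspd1, Hspe1 and the HSP70 cofactor gene Hsph1, that is 3 of 29 genes, and in 0.662% of the 27025 genes with a window. The list was made up of heat shock and chaperone genes, so nothing is read from these shares. Listed genes without a window were Hspa8, Hsp90aa1, Hsp90ab1, Hspb2, Cryab, Hsf1, Hspa9 and Manf, so these were not searched. The windows of Hspa1a and Dnajb1 were searched and had no match. In the lines that follow, 30 bases are given 5′ to 3′ on the strand of the gene, with matches in capitals. The Hspe1 line (chr1:55088053-55088082, plus strand) and the Hspd1 line are the same bases read on opposite strands and hold 2 overlapping matches over 18 bases, at positions -89 to -72 from the start of Hspe1. These matches lie inside the GENCODE span of Hspd1 given above, at positions -144 to -127 from a RefSeq start of Hspd1 within that span. The Hsph1 match (chr5:149636287-149636316, minus strand) lies after its start.
Hspe1: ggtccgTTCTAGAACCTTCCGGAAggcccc
Hspd1: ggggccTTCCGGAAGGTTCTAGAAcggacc
Hsph1: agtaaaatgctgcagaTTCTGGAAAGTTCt
A match is a description of letters and was not measured as a bound site.

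The other 4 mitochondrial genes had lower means with oxaliplatin and did not pass. Lonp1, an ATP-dependent protease of the matrix, had 777, 861, 1030.4 and 1812 normalized counts in vehicle samples 1 to 4 and 659.6, 685, 717, 795 and 759 in oxaliplatin samples 1 to 5. Vehicle 4 stood high, and oxaliplatin samples were close together and overlapped vehicle 1 only (log2 fold change -0.55, 95% interval -0.99 to -0.11, limma adjusted p = 0.0904). It passed without vehicle 1 (adjusted p = 0.0437). Clpp, the protease subunit of another matrix machine, had a log2 fold change of -0.34 (95% interval -0.64 to -0.05, limma adjusted p = 0.108) and passed without oxaliplatin 1 (adjusted p = 0.0277) and after quantile normalization (0.0404). Hspa9, the HSP70 of the matrix, had 15040.4 ± 1111 normalized counts in vehicle and 12545 ± 1985 in oxaliplatin samples (log2 fold change -0.27, 95% interval -0.56 to 0.01). Trap1, its HSP90, had 4945 ± 198 normalized counts in vehicle and 4334 ± 320.3 in oxaliplatin samples (-0.19, 95% interval -0.41 to 0.02). The mean of the 6 genes on the log2 scale, each gene centred on all samples, ran from 0.11 to 0.40 in vehicle and from -0.37 to -0.05 in oxaliplatin samples. Beside this, the 12 cardiomyocyte markers had a median log2 fold change of -0.34, of which Myh6 and Myl2 passed and none was at 0 in any sample, and summed to 1815303 to 2249444 normalized counts in vehicle and 1423553 to 2043018 in oxaliplatin samples. The part of cardiomyocyte share in the lower chaperonin genes was not tested.

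In the cytosol, only 1 of the HSP90 pair fell. Hsp90ab1, the constitutive HSP90, had 37004, 37662, 47754 and 45643 normalized counts in vehicle samples 1 to 4 and 29529, 35999, 26904, 27280.4 and 25642 in oxaliplatin samples 1 to 5. The highest oxaliplatin sample, oxaliplatin 2, lay just below the lowest vehicle sample, vehicle 1. The mean of Hsp90ab1 went from 42016 ± 5482 to 29071 ± 4119 normalized counts on oxaliplatin (log2 fold change -0.53 with SE 0.14 and adjusted p = 0.0236, limma). Hsp90aa1, the stress-inducible paralog, had 2007, 1854, 2417 and 2460.2 normalized counts in vehicle samples 1 to 4 and 2419.7, 2929.6, 2123, 2294 and 2115 in oxaliplatin samples 1 to 5, with overlapping groups (log2 fold change 0.12, 95% interval -0.16 to 0.40, limma adjusted p = 0.576). The log2 ratio of Hsp90ab1 to Hsp90aa1 within a sample, which does not depend on the scaling between samples, was 4.27 ± 0.07 in vehicle and 3.61 ± 0.03 in oxaliplatin samples. It ran from 4.20 to 4.34 in vehicle and from 3.57 to 3.66 in oxaliplatin samples. The ratio was lower in 5 of 5 oxaliplatin samples than in any vehicle sample. The difference of -0.65 had an exact two-sided permutation p of 0.00794, the smallest that 4 against 5 samples allow. Its adjusted p of 0.0476 over the 6 pairs follows from that smallest p and the number of pairs. The pairs were picked with the values known, so nothing is read from the adjusted p. The call of Hsp90ab1 itself was lost after quantile normalization (adjusted p = 0.121), with the immediate early gene score as a covariate (0.0943) and when single samples were left out, at 0.0874 and 0.0539 on leaving out vehicle 3 or 4, and 0.0587, 0.0547 and 0.0625 on leaving out oxaliplatin 3, 4 or 5. Its log2 fold change stayed negative in all 23 settings, from -0.73 to -0.39.

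None of 3 HSP70 and HSP110 genes and none of 3 J-protein genes passed in limma (1 of each had an unadjusted p under 0.05, Hsph1 and Dnajb5). As 14.3% of all genes passed, nothing is read from counts this small. Hspa8, the constitutive HSP70, had 70817 ± 8076 normalized counts in vehicle and 62468 ± 8671 in oxaliplatin samples (log2 fold change -0.19, 95% interval -0.49 to 0.12, limma adjusted p = 0.417). Hspa1a, the classic stress-inducible HSP70, was the lowest of all members, with 34.0, 57.2, 129 and 139.6 normalized counts in vehicle samples 1 to 4 and 49.1, 20.98, 38.3, 48.7 and 82.7 in oxaliplatin samples 1 to 5. Vehicle 3 and vehicle 4 were the highest samples and the groups overlapped (log2 fold change -0.80, 95% interval -1.79 to 0.19, limma adjusted p = 0.269). Hspa1a has a near-identical copy, Hspa1b, which had no row in the table. The counts of Hspa1a are uncertain where the authors' counting could not separate reads of these copies. Hsph1, an HSP110 that exchanges nucleotide on HSP70, had 507, 488, 969 and 875 normalized counts in vehicle samples 1 to 4 and 233, 775, 288, 239.8 and 234 in oxaliplatin samples 1 to 5. Oxaliplatin 2 lay within the vehicle range, while the other 4 oxaliplatin samples lay below every vehicle sample. Hsph1 had 709.8 ± 248 normalized counts in vehicle and 354 ± 236 in oxaliplatin samples (log2 fold change -1.12, 95% interval -1.97 to -0.26, limma adjusted p = 0.0814). It passed without oxaliplatin 2 (log2 fold change -1.45, adjusted p = 6.33e-04) and when the 3 samples with a high atrial score were left out (-1.57, 9.96e-04). Among J-proteins, Dnaja1 was at 0.01 on the log2 scale (95% interval -0.23 to 0.26) and Dnajb1 at -0.26 (95% interval -0.58 to 0.05). Dnajb5, a muscle-rich J-protein, had 1413, 1822, 1847 and 2236 normalized counts in vehicle samples 1 to 4 and 1439.9, 1521, 1117, 1270.3 and 1362 in oxaliplatin samples 1 to 5, which overlapped through vehicle 1 and oxaliplatin 1 and 2 (log2 fold change -0.44, 95% interval -0.73 to -0.14, limma adjusted p = 0.0518). Its adjusted p was 0.0220 on leaving out vehicle 1, and 0.0475 and 0.0352 on leaving out oxaliplatin 1 or 2. It was 0.0419 after quantile normalization and 0.0269 without the 3 samples of high atrial score. With the atrial or erythroid score as a covariate it was 0.0450 and 0.0315.

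**Figure D3:**
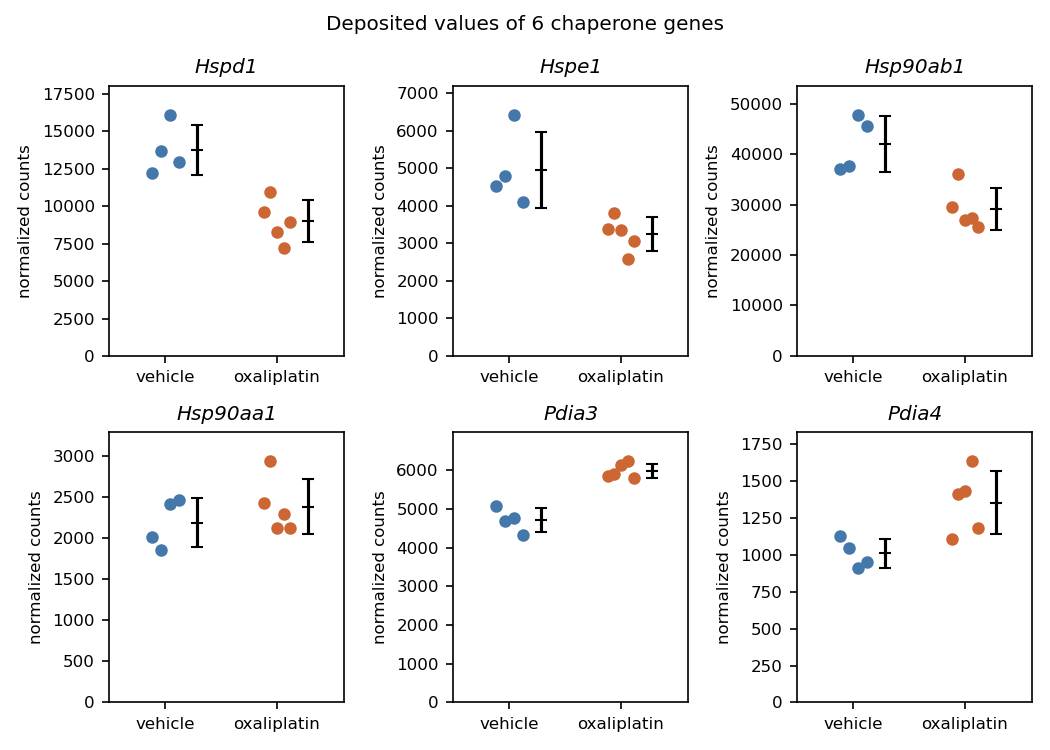
Points are normalized counts of 6 chaperone genes in 4 vehicle and 5 oxaliplatin samples, and bars beside them give the mean and SD. The groups do not overlap for Hspd1, Hspe1, Hsp90ab1 and Pdia3, while they overlap for Hsp90aa1 and, at 1 sample of each group, for Pdia4.

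Immediate early genes, which respond quickly to stimulation, are given beside the heat shock genes. The score of 14 such genes was -1.59 in vehicle 1 and 1.01 to 1.16 in the other vehicle samples, against -0.89 to 0.51 in oxaliplatin samples, with oxaliplatin 2 the highest of these. None of the 14 passed in limma (1 had an unadjusted p under 0.05), 13 had negative log2 fold changes (median -0.73), and none was at 0 in any sample. Vehicle 3, vehicle 4 and oxaliplatin 2, the samples highest for Hsph1, were among the 4 samples with a positive score, as was vehicle 2, where Hsph1 was the lowest of the vehicle samples. The part of these genes in the chaperone values was tested only as the covariate given beside each call.

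Of 7 small heat shock protein genes, 0 passed in limma, where 14.3% of all genes passed, and 0 had an unadjusted p under 0.05. All 7 had negative log2 fold changes, as did 52.3% of all genes tested. Hspb7, a filament-binding protein of heart muscle, had 130981, 150152, 135181 and 90055 normalized counts in vehicle samples 1 to 4 and 188454, 111619, 96960.0, 91003 and 144990.0 in oxaliplatin samples 1 to 5. Its highest and lowest samples were oxaliplatin 1 and vehicle 4, and the groups overlapped (log2 fold change -0.03, 95% interval -0.51 to 0.45). Cryab, alpha B-crystallin, had 63221 ± 8604 normalized counts in vehicle and 51796 ± 12437 in oxaliplatin samples (log2 fold change -0.31, 95% interval -0.68 to 0.06, limma adjusted p = 0.257). Hspb6, also called HSP20, had 75552 ± 9875 normalized counts in vehicle and 58351 ± 17730.4 in oxaliplatin samples (-0.41, 95% interval -0.85 to 0.02). Hspb8, which works with Bag3 in the removal of damaged filament proteins, was at -0.29 (95% interval -0.61 to 0.03). Cryab, Hspb6 and Hspb8 passed without oxaliplatin 1 (adjusted p = 0.0393, 0.0323 and 0.0453), the sample in which each was highest within its group. Hspb2, head to head with Cryab on chromosome 9 and with exons that overlap it, was at -0.24 (95% interval -0.52 to 0.04), and the log2 ratio of Cryab to Hspb2 differed by -0.07 between groups (exact two-sided permutation p = 0.516 before adjustment). Hspb3 was at -0.15 (95% interval -0.58 to 0.28). Hspb1, also called HSP25 in mice, varied most in vehicle samples, with 757, 996, 1116 and 4798 normalized counts in vehicle samples 1 to 4 and 679, 619, 559.9, 531 and 2088 in oxaliplatin samples 1 to 5. Vehicle 4 and oxaliplatin 5 stood far above the rest of their groups (log2 fold change -0.89, 95% interval -2.36 to 0.58, limma adjusted p = 0.403).

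Bag3, the partner of Hspb8 and HSP70, had 10727 ± 789 normalized counts in vehicle and 10441 ± 2275 in oxaliplatin samples (log2 fold change -0.06, 95% interval -0.39 to 0.27). Hsf1, the heat shock transcription factor, had 1188, 1075, 1237 and 1200.1 normalized counts in vehicle samples 1 to 4 and 1073, 965, 999, 841 and 898 in oxaliplatin samples 1 to 5. All oxaliplatin samples lay below all vehicle samples, by as little as the gap between vehicle 2 and oxaliplatin 1, and the gene did not pass (log2 fold change -0.30, 95% interval -0.53 to -0.08, limma adjusted p = 0.0712; 0.0410 without oxaliplatin 1).

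**Figure D4:**
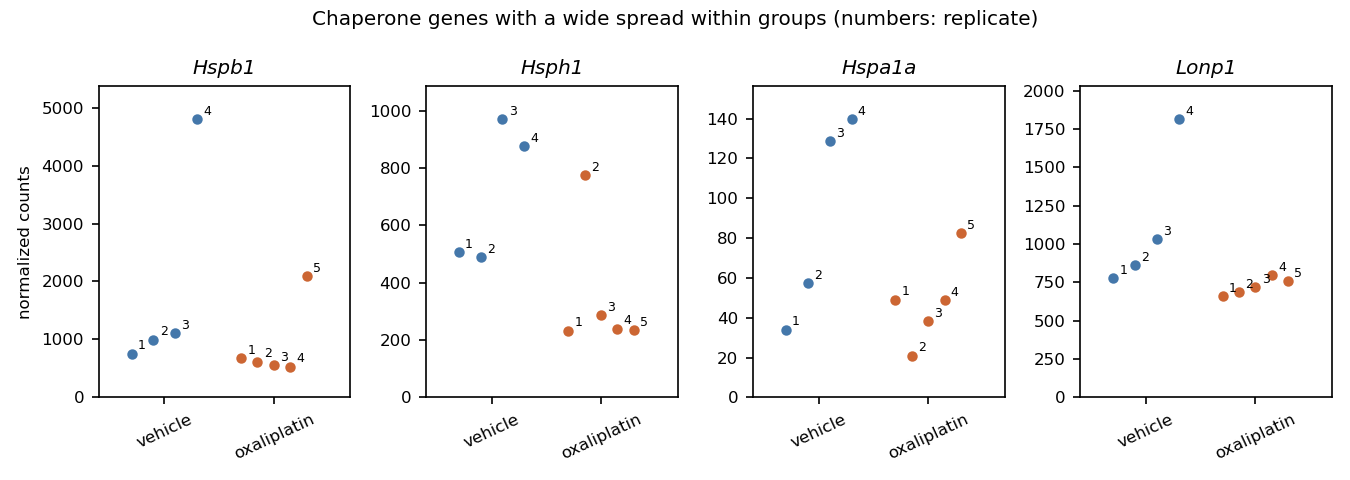
Points are normalized counts of Hspb1, Hsph1, Hspa1a and Lonp1 in each sample, with the replicate number beside each point. Vehicle 4 and oxaliplatin 5 are high for Hspb1, oxaliplatin 2 is high for Hsph1, and vehicle 4 is high for Lonp1.

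In the ER, 2 of 3 disulfide isomerase genes rose and the other 11 genes did not pass. Pdia3, which works with calnexin and calreticulin on glycoproteins, had 5080.4, 4692, 4761 and 4321 normalized counts in vehicle samples 1 to 4 and 5859.8, 5909, 6139.6, 6227 and 5804 in oxaliplatin samples 1 to 5. Every oxaliplatin sample lay above every vehicle sample, and its mean went from 4714 ± 312 to 5988 ± 185 normalized counts with the drug (log2 fold change 0.35 with SE 0.10 and adjusted p = 0.0316, limma). Pdia4, a larger isomerase with an additional active domain, had 1129, 1050.0, 910.0 and 955 normalized counts in vehicle samples 1 to 4 and 1108, 1415, 1432, 1634 and 1180.0 in oxaliplatin samples 1 to 5. Oxaliplatin 1 lay just below vehicle 1 and the others lay above all vehicle samples (mean from 1011 ± 98.1 to 1354 ± 212 normalized counts, log2 fold change 0.41 with SE 0.13 and adjusted p = 0.0490, limma). Pdia6, the third, was at 0.10 (95% interval -0.15 to 0.35). Both calls were near the threshold. Without the 3 samples of high atrial score the adjusted p was 0.125 for Pdia3 and 0.173 for Pdia4, with the erythroid score as a covariate 0.119 and 0.108, and with the immediate early gene score 0.107 and 0.132. For Pdia3 it was 0.0834, 0.0778 and 0.0561 on leaving out vehicle 2, 3 or 4, and 0.0728, 0.0738 and 0.0598 on leaving out oxaliplatin 3, 4 or 5, and for Pdia4 it was 0.0683 after quantile normalization, 0.0860 without trend and robust moderation, and 0.0554, 0.0907, 0.145 and 0.0961 on leaving out vehicle 1, 2, 3 or 4, and 0.0701, 0.105, 0.117 and 0.0514 on leaving out oxaliplatin 2, 3, 4 or 5. Both kept a positive log2 fold change in all 23 settings, from 0.31 to 0.39 and from 0.34 to 0.51.

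Neither the core ER chaperones nor the 6 targets of the unfolded protein response passed (1 of these targets, Dnajb9, had an unadjusted p under 0.05). With 14.3% of all genes passing, nothing is read from these counts. Hspa5, the ER HSP70 also called BiP, had 16691, 17513, 17754 and 15275 normalized counts in vehicle samples 1 to 4 and 21028, 15452, 16962, 18099.9 and 19621 in oxaliplatin samples 1 to 5, with overlapping groups (log2 fold change 0.11, 95% interval -0.15 to 0.38, limma adjusted p = 0.589). Hsp90b1, the ER HSP90 also called GRP94, was at 0.03 (95% interval -0.21 to 0.28). The lectin chaperones Calr and Canx were at -0.10 (95% interval -0.39 to 0.20) and -0.16 (95% interval -0.38 to 0.06). Herpud1, which acts in ER-associated degradation, had 7153 ± 667 normalized counts in vehicle and 7717 ± 1031 in oxaliplatin samples (log2 fold change 0.10, 95% interval -0.17 to 0.37). Dnajb9, a J-protein induced through the sensor Ern1, had 790.0, 876, 773 and 614 normalized counts in vehicle samples 1 to 4 and 668, 666, 559.7, 560.0 and 629 in oxaliplatin samples 1 to 5, with vehicle 4 inside the oxaliplatin range (log2 fold change -0.30, 95% interval -0.57 to -0.03, limma adjusted p = 0.125; 0.0373 without vehicle 4). Xbp1, the transcription factor of that branch, was at -0.16 (95% interval -0.46 to 0.14), without information on its splicing. Sdf2l1, Creld2 and Manf, small ER proteins raised by ER stress, were at -0.27 (95% interval -0.69 to 0.14), -0.15 (95% interval -0.44 to 0.14) and 0.00 (95% interval -0.20 to 0.21).

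ER stress elements were searched in the same windows, as CCAAT and CCACG with any 9 bases between, and as a second form, ATTGG and CCACG with any 1 base between, on both strands. The first occurred in 6 of 29 members with a window and in 0.137% of all genes with one, and the second in 1 of 29, Herpud1, and in 0.0444% of all genes. The unfolded protein response element TGACGTGG occurred in none of the 29 and in 0.714% of all genes. The list holds known targets of the unfolded protein response, so nothing is read from these shares. The sites are shown to identify the 7 genes that hold one, Hspa5, Hsp90b1, Calr, Canx, Pdia6, Creld2 and Herpud1, whose log2 fold changes ran from -0.16 to 0.11. None of the 7 passed, as was so for 31 of the 36 members, and with 14.3% of all genes passing nothing is read from that count. The windows of Pdia3 and Pdia4 hold none of these letters. The windows lie at chr2:34772020-34772049, plus strand for Hspa5, chr10:86705632-86705661, minus strand and chr10:86705527-86705556, minus strand for Hsp90b1, chr8:84847069-84847098, minus strand for Calr, chr11:50325794-50325823, minus strand for Canx, chr12:17266486-17266515, plus strand for Pdia6, chr15:88819515-88819544, plus strand for Creld2 and chr8:94386368-94386397, plus strand for Herpud1, with the match in capitals.
Hspa5: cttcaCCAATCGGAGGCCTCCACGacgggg
Hsp90b1, farther site: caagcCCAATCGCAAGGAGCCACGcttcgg
Hsp90b1, nearer site: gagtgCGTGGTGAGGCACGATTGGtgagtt
Calr: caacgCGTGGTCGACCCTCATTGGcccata
Canx: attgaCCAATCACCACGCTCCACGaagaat
Pdia6: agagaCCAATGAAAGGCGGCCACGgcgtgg
Creld2: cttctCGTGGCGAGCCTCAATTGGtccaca
Herpud1: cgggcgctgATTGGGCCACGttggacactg
In Calr, Creld2 and the nearer Hsp90b1 site the letters stand in the opposite orientation to the gene. A window without a match says only that these letters are not in it.

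Other genes of protein folding and turnover, 139 in 6 lists with no member in common with the 36, were set beside the members. Of them 14 rose (10.1%) and 9 fell (6.47%), close to the 9.23% and 5.03% of all genes. Among 37 cytosolic co-chaperones and partners of HSP70 and HSP90, 3 rose and 6 fell (median log2 fold change -0.16). Fkbp4, which docks on HSP90 in steroid receptor complexes, went from 12971 ± 1087 to 6281 ± 937 normalized counts in oxaliplatin samples (log2 fold change -1.06 with SE 0.14 and adjusted p = 8.39e-04, limma), and its counterpart Fkbp5 from 192 ± 99.5 to 619 ± 177 normalized counts in these (log2 fold change 1.77 with SE 0.31 and adjusted p = 0.00465). Both had groups that did not overlap, and Fkbp5 is also a glucocorticoid target. Unc45b, the myosin chaperone of striated muscle, fell by 0.57 on the log2 scale and the HSP70 gene Hspa2 rose by 1.35 (adjusted p = 0.00892 and 0.00237). Of 14 subunits of the cytosolic chaperonin TRiC and prefoldin 0 passed in limma, 13 had negative log2 fold changes, and Cct7 and Cct4 had the smallest adjusted p, 0.226 and 0.275. Of all genes tested, 52.3% had negative values and 14.3% passed, and before adjustment 0 of the 14 had a p under 0.05.

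Of 22 further ER folding genes 6 rose and 1 fell (median 0.06), where 9.23% of all genes rose and 5.03% fell. Those of smallest p were Pdia5, a disulfide isomerase, from 109.6 ± 18.9 to 247 ± 54.1 normalized counts (log2 fold change 1.15, limma adjusted p = 0.00261), the ER cyclophilin Ppib (rose by 0.57), the oxidase Ero1l, which reoxidizes disulfide isomerases (rose by 0.67), and the J-protein reductase Dnajc10 (rose by 0.48). The last had an adjusted p of 0.0564 without the 3 samples of high atrial score. Of 20 genes of ER-associated degradation and translocation 2 rose, the translocon subunit Sec61a1 (by 0.69) and its neighbour Ssr1 (by 0.39, limma adjusted p = 0.0273). The adjusted p of Ssr1 was 0.0658, 0.0700 and 0.0534 on leaving out vehicle 2, 3 or 4, and 0.0608 and 0.0622 on leaving out oxaliplatin 3 or 4. It was 0.103 with the erythroid and 0.102 with the immediate early gene score as a covariate, and 0.0662 when the 3 samples with a high atrial score were left out. Beside these rises, the 8 fibroblast markers had a median log2 fold change of 0.62, with 1 higher, and summed to 20973 to 31403 normalized counts in vehicle and 25048 to 69349 in oxaliplatin samples. The 8 endothelial markers had a median of 0.57, with 3 higher, and summed to 27602 to 35552 normalized counts in vehicle and 38086 to 73883 in oxaliplatin samples. None of these markers was at 0 in any sample, and the part of such cells in the rise of ER genes was not tested.

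Of 19 genes of unfolded protein response sensors and the PERK branch 3 rose and 1 fell (median 0.19), where 9.23% of all genes rose and 5.03% fell. Asns, asparagine synthetase, rose from a mean of 88.3 ± 9.52 to 187 ± 20.5 normalized counts (log2 fold change 1.07, limma adjusted p = 0.00140), the transcription factor gene Creb3 rose by 0.56 and the pseudokinase gene Trib3 by 1.26. Trib3 went from 106 ± 22.6 to 273 ± 116 normalized counts (limma adjusted p = 0.0167). Its groups overlapped, with oxaliplatin 2 at 122.4 and vehicle 2 at 129.6. Wfs1, an ER membrane protein, fell by 0.48. The adjusted p of Trib3 was 0.0624 and 0.0539 on leaving out vehicle 3 or 4, and 0.0549 with the immediate early gene score. That of Wfs1 was 0.0569 and 0.0598 on leaving out vehicle 2 or 3, and 0.0579 on leaving out oxaliplatin 4, 0.140 with the erythroid score, 0.0922 with the immediate early gene score, 0.0533 when the 3 samples with a high atrial score were left out, and 0.0525 without trend and robust moderation. That of Creb3 was 0.0696 with the erythroid score. Of 27 mitochondrial co-chaperones, proteases and import genes 0 rose and 1 fell, the inner membrane protease gene Oma1 (by 0.42, limma adjusted p = 0.0204). Log2 fold changes were negative for 24 of 27 (median -0.21), beside 52.3% of all genes tested. The adjusted p of Oma1 was 0.0701 and 0.0580 on leaving out vehicle 2 or 3, and 0.0533 on leaving out oxaliplatin 4. It was 0.108 when the 3 samples with a high atrial score were left out, 0.0896 with the erythroid score and 0.0626 with the immediate early gene score.

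Levels of the members, per kilobase of the longest protein-coding transcript of GENCODE M21, spanned over 3 orders of magnitude. In vehicle samples the highest means were 56599 normalized counts per kilobase for Cryab, 55431 for Hspb6, 45718 for Hspb7 and 29581 for Hspa8, and the lowest was 30.3 for Hspa1a. The sample ranges of neighbours in this order overlapped among these first 4. Next, and apart from both neighbours, came Hsp90ab1 at 16673, followed by a group of mitochondrial and ER genes that included Hspe1 at 6409, Hspd1 at 5674 and Hspa5 at 4577. Of 35 pairs of neighbours in the order of levels, 6 had vehicle ranges that did not overlap. The most variable members in vehicle samples were Hspb1 (coefficient of variation 101%), Hspa1a (58.1%), Lonp1 (42.2%) and Hsph1 (35.0%). The median coefficient of variation was 13.6% for cytosolic, 12.4% for mitochondrial and 6.92% for ER genes in vehicle samples, and 21.8%, 15.0% and 11.99% in oxaliplatin samples.

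**Figure D5:**
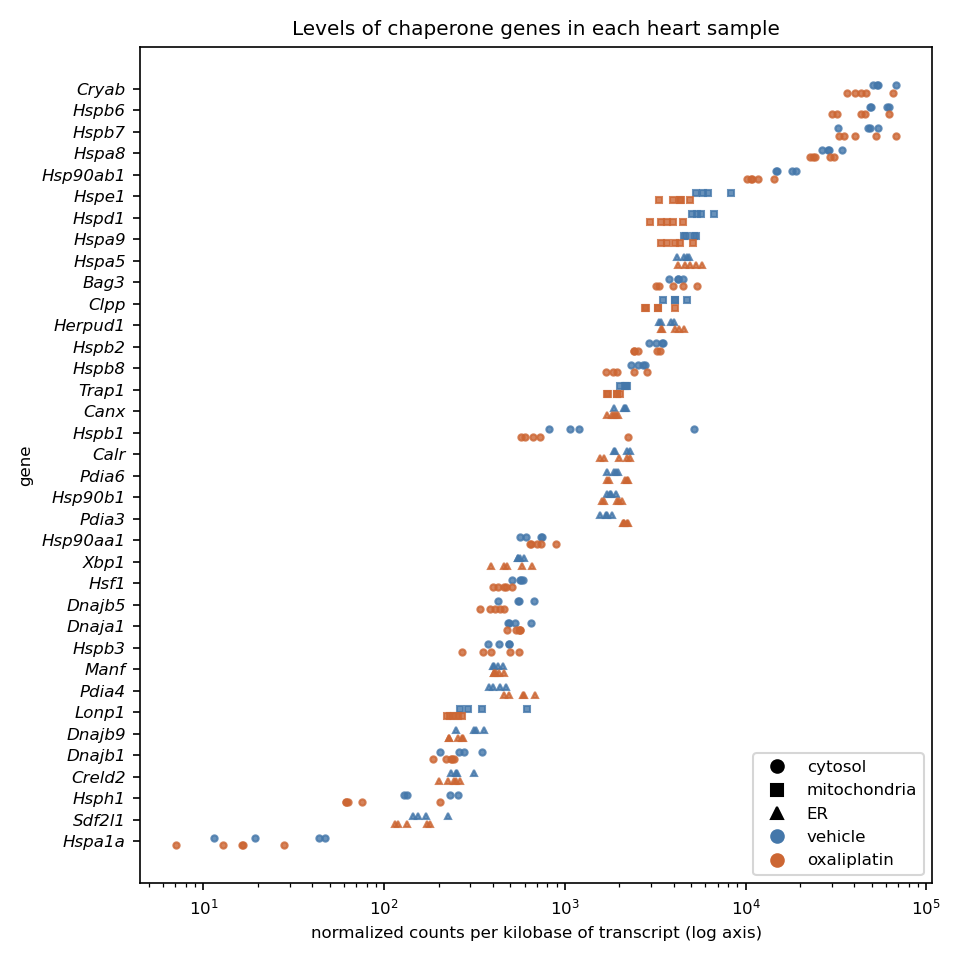
Points are single samples, with normalized counts per kilobase of transcript on a log axis and the 36 genes ordered by their vehicle mean. Cryab, Hspb6, Hspb7 and Hspa8 are at the top and Hspa1a is at the bottom, and oxaliplatin points of Hspd1, Hspe1 and Hsp90ab1 lie left of the vehicle points.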

How the data were processed

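RNA of integrity above 8 from 9 heart samples was made into libraries with a SMARTer kit, per the labels' protocols and the series' design text. The authors deposited 1 table of normalized counts, a signal per gene and sample, per the file headers. The submitters' processing notes list STAR 2.5.1a, Partek and DESeq2 and give no role for any of them. Genome build, annotation and strandedness of the counting: not given in the sources used here. The highest sample of the lowest gene held 40.6 normalized counts, so low genes are lacking. Totals ran from 29.4 M to 36.9 M normalized counts, and the step between low values gave the estimated reads. Of values under 60, 67.9% to 75.8% lay within 0.02 of a whole read, so whole reads were not recovered.

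Groups came from the titles. The test was limma 3.58.1 (R 4.3.3, trend and robust moderation, two-sided) on log2(value + 1), over the 13788 genes whose mean reached 10, with Benjamini-Hochberg adjustment over all of them. The steps were tested on simulated data. Members and lists were chosen with earlier results of these data known. All members present are named, and of each other list up to 4 genes of smallest p that passed, or 2 where none did. Scores are means of log2(value + 1) over a list, each gene centred. Promoter windows are those of RefSeq on GRCm38.p6. Alternatives changed pseudocount, filter, scaling (quantile or unweighted trimmed mean of M values), moderation, weights, replicate block, threshold, covariates and samples.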

Additional observations from a re-analysis of the deposited data

Results flagged for a closer look

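Of 72 groups of values looked at (36 chaperone genes in vehicle and in oxaliplatin samples), 4 held 1 sample far from the others of its group. Chance gives about 1 in 20, so this number is near what chance alone gives. Hspb1 was 4798 normalized counts in vehicle 4, where the other vehicle samples lay between 757 and 1116. Hspb1 was also 2088 in oxaliplatin 5, against 531 to 679 in the other oxaliplatin samples. Hsph1 was 775 in oxaliplatin 2, against 233 to 288. Canx, the membrane-bound lectin chaperone, was low in vehicle 4 at 7973, against 9059.6 to 9269 in the other vehicle samples.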

How the results depend on the processing

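Of 827 combinations of a chaperone gene and an alternative setting, 731 kept direction and side of the threshold, 35 lost a call, 31 gained one and 30 changed sign, the last in 7 genes that did not pass. Fits that left out 1 sample each gave 789 to 1508 higher and 321 to 880 lower genes over all genes (1272 and 694 in the main analysis), 0 to 2 and 1 to 9 chaperone genes (2 and 3), and 11 to 15 and 3 to 12 other proteostasis genes (14 and 9). Median log2 fold changes over all 23 settings ran from -0.55 to -0.36 for mitochondrial, from -0.43 to -0.22 for cytosolic and from -0.03 to 0.03 for ER genes. Array weights per sample gave 1975 higher and 1566 lower genes, with 13 chaperone and 24 other proteostasis genes lower. Calls gained with these weights, by limma adjusted p, were the mitochondrial genes Clpp (0.00816), Hspa9 (0.0244) and Trap1 (0.0426) and the ER gene Dnajb9 (0.00940). In the cytosol they were Hspb6 (0.0160), Dnajb5 (0.0178), Hsf1 (0.0347), Hspb2 (0.0362), Cryab (0.0451) and Hspb8 (0.0456). The erythroid score as a covariate gave 799 and 249, with 0 chaperone genes higher and 5 other genes lower. The immediate early gene score gave 776 and 294, with 0 chaperone genes higher, 1 lower and 3 other genes lower. Without the 3 samples of high atrial score 0 chaperone genes were higher, 5 lower and 4 other genes lower. Quantile normalization left 1 chaperone gene higher, as did limma without trend and robust moderation (1), and an adjusted p under 0.1 gave 1185 lower genes and 7 lower chaperone genes. The cause of these differences was not tested.

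Same-numbered samples correlated in their deviations from the group means with r from -0.27 to 0.25. Samples of different number were not compared, so whether the replicate numbers pair samples cannot be told from these values. No vehicle sample has the number of oxaliplatin 5, so a replicate block takes up that sample whole. Its log2 fold changes are those of the fit without oxaliplatin 5, and it is not a separate check on all samples. With the replicate block 0 chaperone genes were higher, 2 lower and 5 other genes lower. Under it the adjusted p was 0.104 for Hsp90ab1, 0.104 for Pdia3, 0.0781 for Pdia4, 0.0762 for Ssr1 and 0.0629 for Oma1.

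Log2 fold changes that changed sign, none of a gene that passed, are given for each gene with the setting: Hspb7 0.085 (quantile normalization), 0.054 (atrial score), 0.18 (without samples of high atrial score), -0.19 to 0.076 (leaving out 1 sample), Manf -0.011 (quantile normalization), -0.0060 (atrial score), -0.026 (without samples of high atrial score), -0.028 to 0.040 (leaving out 1 sample), Cirbp -0.14 (array weights per sample), -0.023 (replicate block), -0.060 (erythroid score), -0.079 (immediate early gene score), -0.091 to 0.24 (leaving out 1 sample), Bag3 0.0017 (atrial score), 0.0016 (without samples of high atrial score), -0.17 to 0.018 (leaving out 1 sample), Hsp90b1 -0.0052 (atrial score), -0.033 (without samples of high atrial score), -0.0097 to 0.084 (leaving out 1 sample), Hsp90aa1 -0.096 (erythroid score), -0.0070 (without samples of high atrial score), Dnaja1 -0.022 (erythroid score), -0.036 to 0.11 (leaving out 1 sample), Xbp1 0.038 (without samples of high atrial score).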

Other observations

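The cold-inducible RNA-binding protein genes Rbm3 and Cirbp, which are known to move opposite to heat shock genes with temperature, were chosen with the values of the chaperone genes known. Rbm3 had 1905, 2147, 1298 and 1265 normalized counts in vehicle samples 1 to 4 and 4656, 2505, 3161, 4884 and 4558 in oxaliplatin samples 1 to 5, with no overlap between groups (log2 fold change 1.25 with SE 0.23 and adjusted p = 0.00501, limma; 3.79e-04 to 0.0352 over the alternatives). Cirbp had 3113, 3854, 2606 and 2697 normalized counts in vehicle samples 1 to 4 and 4935, 1996, 2040.1, 3932 and 4096 in oxaliplatin samples 1 to 5, with groups that overlapped (log2 fold change 0.07 with SE 0.28 and adjusted p = 0.901, limma). The labels used here give neither the body temperature nor the hour of tissue collection, and a link to the chaperone genes was not tested.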
